A study of Homo sapiens with 18 samples.

Results

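Glycolysis splits glucose to pyruvate and lactate, and the response to low oxygen raises many of its genes through the hypoxia-inducible factors. The 41 genes described here are 25 that carry out or gate glycolytic steps and 16 that sense oxygen or are known targets of these factors. They were taken by gene symbol from a list of pathway members, with no threshold on measured values, and all 41 were found among the 39368 rows of each count table. RNA was sequenced from BE2C and Kelly, established human neuroblastoma lines with an amplified MYCN oncogene. Each line carried the hairpin shAhR-1, the hairpin shAhR-2 or the control vector pLKO-GFP, with 3 libraries per group and 18 in all. The labels call both hairpin groups a knockdown and do not name the vector that carried the hairpins. Both hairpins are directed at AHR, the gene of the aryl hydrocarbon receptor, and the series title ties this receptor to dedifferentiation. Nothing in the labels gives the oxygen level, the medium or the time under the hairpin, and each line is 1 line, so the comparison of lines concerns these lines alone. Since no label tells if replicate libraries began as independent cultures, every p-value reflects scatter among the sequenced libraries, and that scatter could be purely technical.

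The libraries held 32799682 to 45469353 counts, and mitochondrially encoded genes took 14.5% to 25.1% of them. Replicate 1 of BE2C shAhR-2 stood apart in that share, at 25.1% against 20.5% in both of its partners, and its counts differed from theirs by 20.9 and 22.8 in chi-square per gene, where other pairs within a group gave 2.81 to 6.59. No member call against the controls with shAhR-2 in BE2C was lost without it. AHR held at most 29 counts in any library. Of its exonic bases 32.3% are shared with other genes, 29.4% with genes on the same strand such as AC019117.2. The counting could have dropped or split such reads. It had 8, 0 and 0 counts in BE2C shAhR-1, 0 in every BE2C shAhR-2 library and 4, 4 and 6 in the BE2C controls. In Kelly it had 18, 11 and 22 counts in the libraries labelled shAhR-1 and 0, 4 and 0 in shAhR-2. The Kelly controls had 4, 26 and 29 counts. The Kelly libraries labelled shAhR-1 thus overlapped their controls, and a lower target could not be told at these counts (log2 fold change −0.10 ± 0.54, adjusted p = 0.889, edgeR). The BE2C shAhR-1 libraries overlapped theirs too, replicate 1 lying above every control, so the same limit holds there. Kelly shAhR-2 replicate 2 equalled Kelly control replicate 1 at 4 counts. The wording "labelled shAhR-1" is used below for Kelly, but the overlap with shAhR-1 was seen in both lines. All 11 adrenergic neuroblastoma markers were detected in every group, and the 5 leukocyte markers stayed below 1 CPM each. After removal of weakly expressed genes, 40 of the 41 members were tested in BE2C and 39 in Kelly. CA9, a membrane carbonic anhydrase that exports acid, passed in neither line, at 0 to 0.186 CPM in the 18 libraries, and SLC2A3 did not pass in Kelly. Levels are CPM, read counts scaled to library size and composition, or CPM per kilobase of exon where genes are compared with each other, and fold changes are log2 values ± SE. "Rose" and "fell" mean an adjusted p below 0.05 in edgeR's quasi-likelihood test, and in bulk RNA fewer cells of a kind and less RNA per cell cannot be told apart.

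In normal oxygen, prolyl hydroxylases of the EGLN family mark the alpha subunits HIF1A and EPAS1 (also called HIF-2 alpha) for destruction by the VHL ubiquitin ligase. When oxygen falls the subunits persist, pair with ARNT and bind a short DNA element in target genes, among them most glycolytic enzymes. ARNT is also the partner of the aryl hydrocarbon receptor, whose own element shares part of that core. EPAS1 is known for its high expression in the sympathoadrenal lineage from which neuroblastoma arises.

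The sequences below are the 250 bases before annotated transcription starts of 6 members, from RefSeq on GRCh38.p14, written 5′ to 3′ on the strand of the gene. They are shown because they cover members that fell with both hairpins in both lines, a member that rose with shAhR-2, and promoters with many and with no copies of the element. The LDHA window belongs to the first of its 2 listed starts. Capitals mark ACGTG, the core of the hypoxia response element, and GCGTG, the core of the element of the aryl hydrocarbon receptor, on either strand, so a match on the other strand reads CACGT or CACGC. The palindrome CACGTG, also the E-box of MYC and MYCN, counts as an ACGTG match on both strands.
LDHA (chr11:18394313-18394562, plus strand): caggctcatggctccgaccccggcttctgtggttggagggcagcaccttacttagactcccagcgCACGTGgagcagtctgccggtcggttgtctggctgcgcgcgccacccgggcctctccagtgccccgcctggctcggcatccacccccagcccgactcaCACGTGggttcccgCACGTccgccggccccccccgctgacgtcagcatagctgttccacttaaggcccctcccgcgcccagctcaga
ALDOC (chr17:28576896-28577145, minus strand): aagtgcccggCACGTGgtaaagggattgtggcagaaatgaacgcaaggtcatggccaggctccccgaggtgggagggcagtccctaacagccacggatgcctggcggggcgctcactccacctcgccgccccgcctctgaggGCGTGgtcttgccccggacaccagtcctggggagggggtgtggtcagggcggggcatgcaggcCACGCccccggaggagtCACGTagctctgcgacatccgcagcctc
PGK1 (chrX:78103998-78104247, plus strand): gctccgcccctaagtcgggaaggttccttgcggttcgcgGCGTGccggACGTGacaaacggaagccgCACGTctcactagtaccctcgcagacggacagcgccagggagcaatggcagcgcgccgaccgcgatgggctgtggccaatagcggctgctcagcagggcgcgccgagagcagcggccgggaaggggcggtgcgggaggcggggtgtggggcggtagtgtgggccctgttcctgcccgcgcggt
BNIP3 (chr10:131981924-131982173, minus strand): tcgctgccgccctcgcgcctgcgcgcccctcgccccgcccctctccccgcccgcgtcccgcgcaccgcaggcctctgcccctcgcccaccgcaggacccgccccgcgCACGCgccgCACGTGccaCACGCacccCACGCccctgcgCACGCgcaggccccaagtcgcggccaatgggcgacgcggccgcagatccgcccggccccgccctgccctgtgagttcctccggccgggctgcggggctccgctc
ENO2 (chr12:6914330-6914579, plus strand): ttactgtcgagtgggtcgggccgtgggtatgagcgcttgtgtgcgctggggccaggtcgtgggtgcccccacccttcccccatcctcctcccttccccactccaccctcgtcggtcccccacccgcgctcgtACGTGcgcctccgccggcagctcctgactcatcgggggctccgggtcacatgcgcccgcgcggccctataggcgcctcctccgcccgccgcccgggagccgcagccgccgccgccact
PKM (chr15:72231191-72231440, minus strand): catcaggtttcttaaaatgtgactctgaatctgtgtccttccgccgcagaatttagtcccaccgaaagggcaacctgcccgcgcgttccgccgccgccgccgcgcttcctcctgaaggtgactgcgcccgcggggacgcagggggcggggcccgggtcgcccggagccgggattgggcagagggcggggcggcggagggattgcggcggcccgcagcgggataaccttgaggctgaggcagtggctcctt

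Of the 41 members, 35 had a start in the table. ACGTG was found upstream of at least 1 listed start of 21 of these 35 genes (60.0%), against 21.7% of the 27305 genes of the whole table. GCGTG was found for 19 of 35 (54.3%), against 36.2% of all genes. Counted per start instead, ACGTG was in 24 of 63 member windows (38.1%) and in 18.5% of all 35116 windows, and GCGTG was in 34.9% and 32.2%. Members list more starts per gene than the table as a whole, which bears on the share by gene. The LDHA window above held 5 matches to ACGTG, the ALDOC window 3 with 2 to GCGTG, and the BNIP3 window 2 with 4 to GCGTG. The PGK1 window held 2 with 1 to GCGTG, the ENO2 window 1 to ACGTG only, and the PKM window none of either. SLC2A3, SLC16A1, VEGFA, STC1, BNIP3L and NDRG1 are named only. These matches are letters in a window and were not tested against binding.

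In each of the 4 comparisons against controls, most glycolytic steps fell. Those that fell in all 4 were SLC2A1, GPI, ALDOA, ALDOC, TPI1, GAPDH, PGK1, PGAM1, ENO1, PKM and PDK1. Falls outnumbered rises among the hypoxia response genes with shAhR-1 in both lines. With shAhR-2 more of these genes rose than fell in Kelly. In BE2C their counts with shAhR-2 lay near the shares over all genes. Both hairpins of a line were set against the same 3 control libraries, so these comparisons are not independent. In BE2C with shAhR-1, 28 of 40 members fell, where 27.1% of all 15732 genes tested fell, and 3 rose, where 25.2% of all genes rose. In BE2C with shAhR-2, 24 of 40 fell and 10 rose, against 37.2% and 38.0% of all genes. In the Kelly libraries labelled shAhR-1, 31 of 39 fell and 4 rose, against 31.0% and 29.6% of 15871 genes. In Kelly with shAhR-2, 21 of 39 fell and 13 rose, against 38.2% and 37.2%. The count of 3 that rose in BE2C with shAhR-1 was 0 without shAhR-1 replicate 1, and 1 without shAhR-1 replicate 2 or without control replicate 3. In those 3 fits the glycolytic steps that rose were 0, 1 and 1 instead of 2, and the hypoxia response genes that rose were 0 instead of 1, and these were 2 without control replicate 1. Without the BE2C shAhR-2 library of high mitochondrial share, the BE2C shAhR-2 counts were again 24 and 10.

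Among the 25 glycolytic steps, 18 fell and 2 rose in BE2C with shAhR-1, and 19 fell and 4 rose with shAhR-2. Of the 24 tested in Kelly, 19 fell and 1 rose in the libraries labelled shAhR-1, and 18 fell and 6 rose with shAhR-2. Their median fold changes were −0.40, −0.59, −0.48 and −0.44 in that order, beside medians of 0.0082, 0.035, 0.0034 and −0.0060 over all genes tested. Among the 15 hypoxia response genes tested, 10 fell and 1 rose in BE2C with shAhR-1, and 12 fell and 3 rose in Kelly libraries labelled shAhR-1, with medians of −0.27 and −0.43. With shAhR-2, 5 fell and 6 rose in BE2C, and 3 fell and 7 rose in Kelly, with medians of −0.08 and 0.26. Beside these counts by list, 27.1% of all genes fell and 25.2% rose in BE2C with shAhR-1. In the Kelly libraries labelled shAhR-1 these were 31.0% and 29.6%. With shAhR-2 they were 37.2% and 38.0% in BE2C and 38.2% and 37.2% in Kelly. The BE2C shAhR-2 counts of hypoxia response genes lie near those shares, so nothing particular to the list is read from them. The Kelly shAhR-2 counts of these genes were not tested against their shares.

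**Figure D1:**
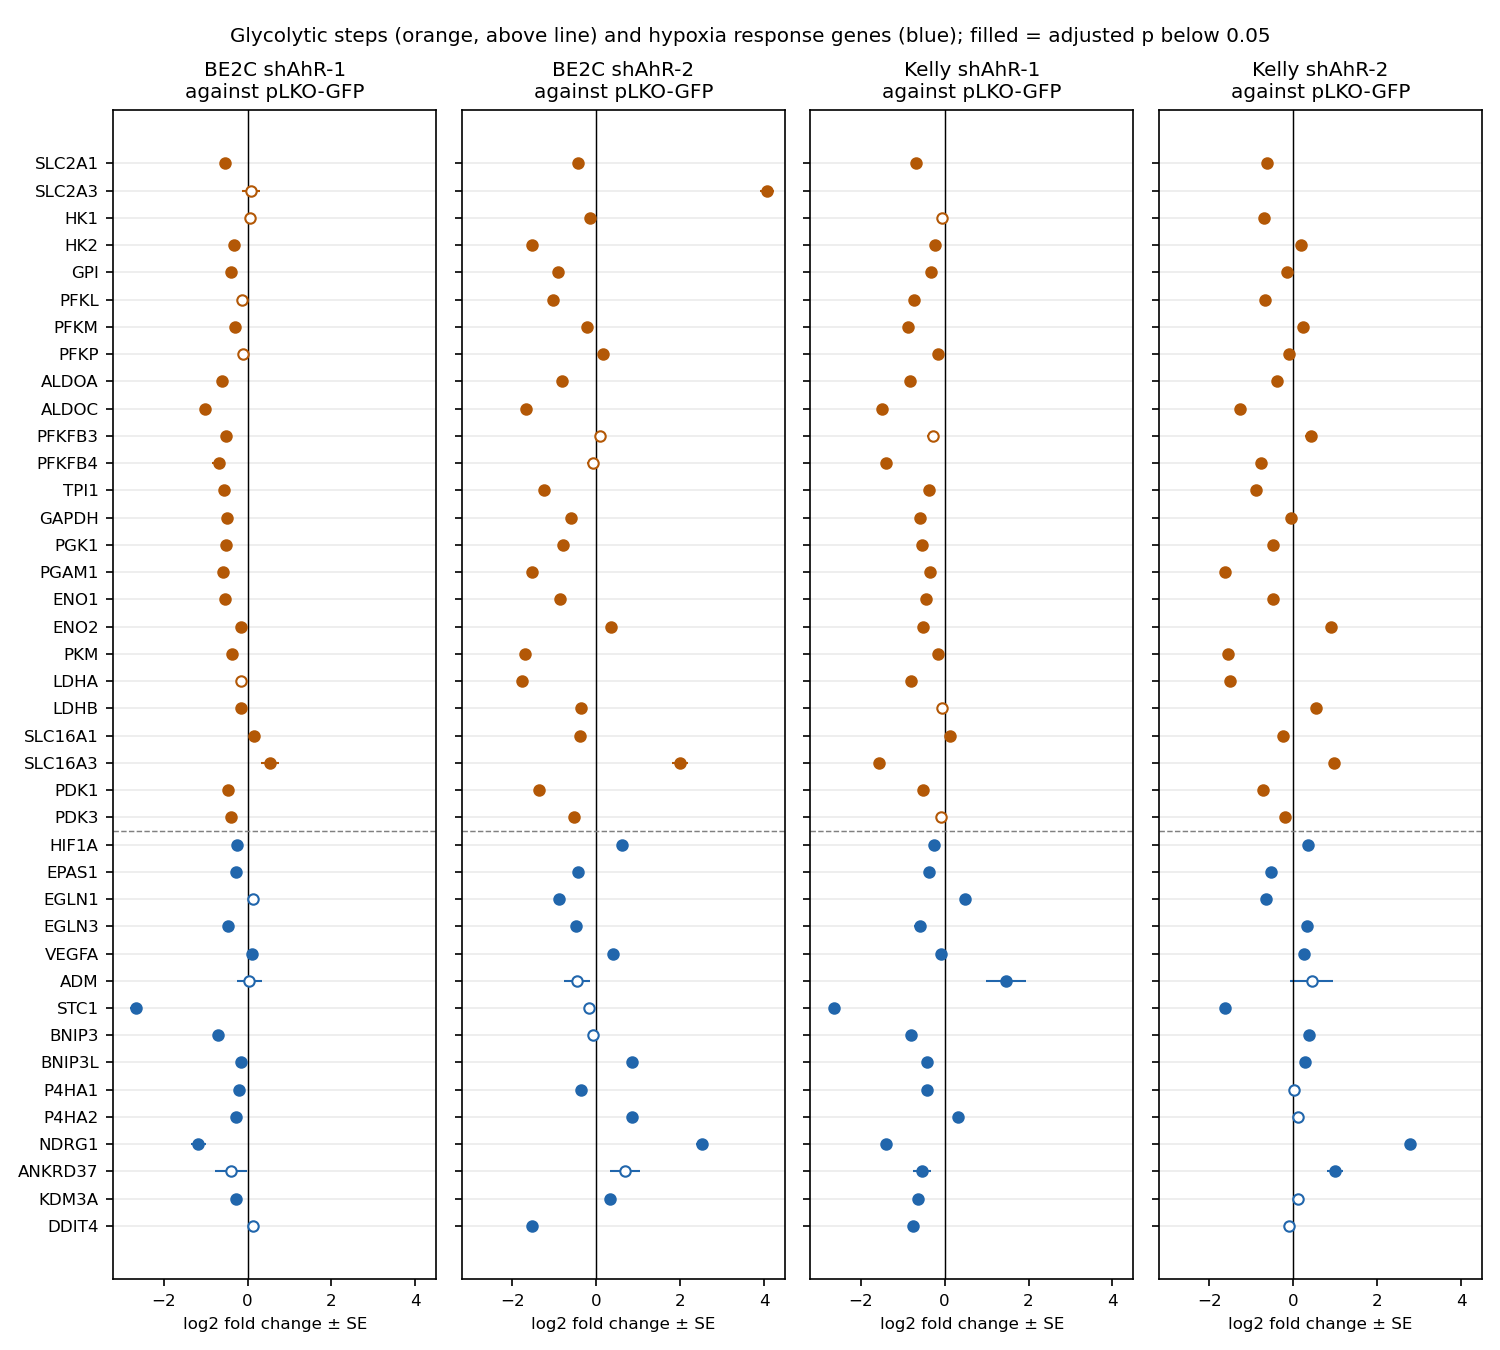
Log2 fold change against pLKO-GFP of the same line (x axis, ± SE) for each member tested (y axis), with glycolytic steps above the dashed line, hypoxia response genes below it, and filled points for an adjusted p below 0.05. Glycolytic steps lie mostly left of 0 in all 4 panels, while the hypoxia response genes lie mostly left with shAhR-1 and on both sides with shAhR-2, NDRG1 reaching 2.51 in BE2C and 2.78 in Kelly.

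**Figure D2:**
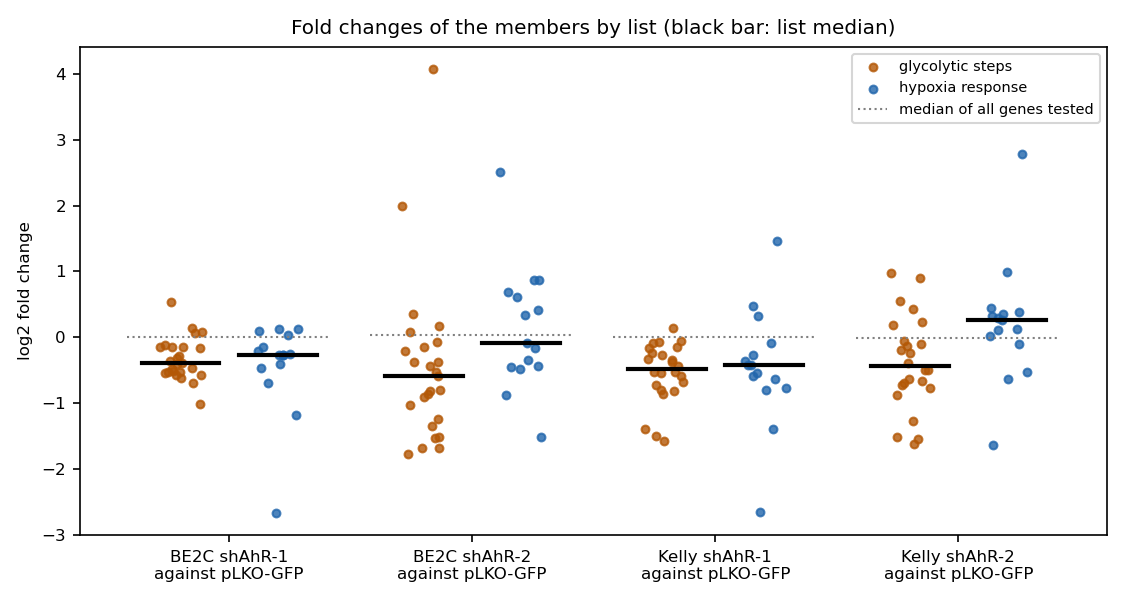
Fold changes of the same members as points, by list and comparison (y axis log2 fold change against pLKO-GFP), with the list median as a black bar and the median of all genes tested as a dotted line. The medians of the glycolytic steps are −0.40, −0.59, −0.48 and −0.44 from left to right, and those of the hypoxia response genes are −0.27, −0.08, −0.43 and 0.26.

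The summed RNA of the glycolytic steps was lower as well. The 25 genes together held 6116 ± 67.8 CPM in BE2C shAhR-1 and 4633 ± 22.8 in shAhR-2, against 8233 ± 180 in the BE2C controls (SD, n = 3 each). In Kelly they held 5915 ± 77.2 CPM in the libraries labelled shAhR-1 and 6283 ± 43.7 in shAhR-2, against 8028 ± 112 in the controls. The lowest control library summed to 8057 CPM in BE2C and 7953 in Kelly, and the highest hairpin library to 6189 and 6324, so the groups did not overlap in either line. The 7 enzymes of lower glycolysis made up most of each sum. The 16 hypoxia response genes summed to 949.3 CPM with shAhR-1 and 1352 with shAhR-2 in BE2C, against 1109 in controls, and to 1226 and 1519 in Kelly, against 1561 in controls.

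Glucose enters cells through facilitative transporters, of which SLC2A1 (GLUT1) is the widespread form and SLC2A3 (GLUT3) the high-affinity form known from neurons. SLC2A1 held 59.5, 62.3 and 59.7 CPM in the BE2C shAhR-1 libraries and 63.7, 61.4 and 66.5 in shAhR-2, against 88.3, 90.5 and 82.1 in controls. SLC2A1 in Kelly held 74.5, 81.4 and 81.6 CPM in the libraries labelled shAhR-1 and 85.0, 81.2 and 81.2 in shAhR-2, against 121, 133 and 127 in controls. Every hairpin library lay below every control library of its line, and SLC2A1 fell in all 4 comparisons, by 0.53 and 0.43 on the log2 scale in BE2C and by 0.67 and 0.63 in Kelly (SE 0.045, 0.045, 0.038 and 0.038). SLC2A3 went the other way in BE2C, and with 1 hairpin only. It held 0.793, 1.02 and 1.15 CPM with shAhR-1 and 18.1, 14.4 and 14.2 with shAhR-2, against 0.950, 0.781 and 1.06 in controls. The shAhR-2 libraries lay far above the rest (4.07 ± 0.16, adjusted p = 2.28e-21), and the shAhR-1 libraries overlapped the controls (0.08 ± 0.22, adjusted p = 0.79). In Kelly SLC2A3 had 0 counts in all 9 libraries, which allows up to 0.0263, 0.0231 and 0.0239 CPM in the libraries labelled shAhR-1, shAhR-2 and the controls, by a floor of 3 counts over a group and for counting error only. Named copies of SLC2A3 held 5.13% of the counts of the gene itself.

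Upper glycolysis spends ATP to trap glucose and split it. Its 8 genes are the hexokinases HK1 and HK2, the isomerase GPI, the phosphofructokinases PFKL, PFKM and PFKP, and the aldolases ALDOA and ALDOC. Of these, 5 fell and 0 rose in BE2C with shAhR-1, 7 fell and PFKP rose with shAhR-2, 7 fell in Kelly libraries labelled shAhR-1, and 6 fell while HK2 and PFKM rose with shAhR-2. The shares of all genes that fell were 27.1%, 37.2%, 31.0% and 38.2% in that order. Those that rose were 25.2%, 38.0%, 29.6% and 37.2%.

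ALDOC, the brain-type aldolase, was the upper-glycolysis member with the largest mean change. It held 9.94, 11.3 and 8.76 CPM in BE2C shAhR-1 and 6.43, 5.28 and 6.86 in shAhR-2, against 20.3, 21.0 and 18.7 in controls. In Kelly, ALDOC held 9.97, 9.77 and 9.85 CPM in the libraries labelled shAhR-1 and 11.3, 10.9 and 12.6 in shAhR-2, against 28.1, 27.1 and 28.5 in controls. No hairpin library reached a control library, and the fold changes were −1.01 ± 0.10 and −1.68 ± 0.10 in BE2C and −1.49 ± 0.076 and −1.27 ± 0.073 in Kelly, with adjusted p-values from 2.12e-23 to 2.51e-10. The upstream window of ALDOC printed above held both ACGTG and GCGTG. ALDOA, the widespread aldolase, held 13.1, 13.6 and 14.2 CPM in BE2C shAhR-1 and 12.1, 12.0 and 11.2 in shAhR-2, against 21.6, 21.7 and 19.2 in controls. ALDOA in Kelly held 9.60, 9.14 and 9.48 CPM in the libraries labelled shAhR-1 and 12.1, 13.7 and 12.7 in shAhR-2, against 17.1, 16.1 and 16.7 in controls. ALDOA too was below its controls in every hairpin library (−0.61 ± 0.080, −0.82 ± 0.080, −0.82 ± 0.083 and −0.38 ± 0.079). Its values are uncertain, because 53.5% of its exonic bases are shared with other genes, 42.3% with genes on the same strand such as AC093512.2, and the counting could have dropped or split such reads.

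HK2, the inducible hexokinase of many tumours, moved in opposite directions between the lines with shAhR-2. It held 106, 114 and 112 CPM in BE2C shAhR-1 and 42.8, 48.0 and 51.6 in shAhR-2, against 138, 142 and 133 in controls. In Kelly, HK2 held 85.2, 88.3 and 89.7 CPM in the libraries labelled shAhR-1 and 118, 119 and 121 in shAhR-2, against 99.8, 103 and 109 in controls. HK2 fell in BE2C (−0.31 ± 0.046 and −1.52 ± 0.049), fell in Kelly libraries labelled shAhR-1 (−0.24 ± 0.036) and rose in Kelly with shAhR-2 (0.19 ± 0.035), with no overlap with controls in any of the 4. The shAhR-2 effect in BE2C less that in Kelly was −1.73 ± 0.062, adjusted p = 6.39e-28.

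The other upper-glycolysis genes changed less evenly. HK1, the constitutive hexokinase, averaged 102 ± 3.3 CPM in Kelly shAhR-2 and 165 ± 6.0 in Kelly controls (−0.70 ± 0.033, adjusted p = 5.08e-25), and 239.8 ± 1.4 and 267 ± 2.9 CPM in the same BE2C groups (−0.14 ± 0.029). GPI averaged 508 ± 4.1 CPM in BE2C shAhR-1 and 353 ± 9.7 in shAhR-2, against 669 ± 25 in controls, and it fell in all 4 comparisons (−0.40 ± 0.030, −0.91 ± 0.030, −0.32 ± 0.027 and −0.14 ± 0.027). Phosphofructokinase commits sugar to glycolysis, and its liver form PFKL fell with shAhR-2 in BE2C (−1.03 ± 0.069) and with both hairpins in Kelly (−0.72 ± 0.063 and −0.66 ± 0.062). The muscle form PFKM averaged 91.8 ± 1.6 CPM in the Kelly libraries labelled shAhR-1 and 198 ± 4.3 in shAhR-2, against 167 ± 2.0 in controls, so the hairpins lay on opposite sides of the control. PFKM fell in BE2C with both (−0.29 ± 0.032 and −0.21 ± 0.032). The platelet form PFKP fell in Kelly (−0.16 ± 0.037 and −0.10 ± 0.037) and rose in BE2C with shAhR-2 (0.17 ± 0.048), and its Kelly shAhR-2 call was lost in edgeR without control replicate 1 or 3 or without shAhR-2 replicate 3, and also under a mean CPM of at least 1 or in DESeq2.

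PFKFB3 and PFKFB4 make and remove fructose 2,6-bisphosphate, a potent activator of phosphofructokinase. PFKFB3 held 36.0, 39.2 and 35.3 CPM in BE2C shAhR-1 and 54.8, 55.9 and 55.0 in shAhR-2, against 56.0, 51.0 and 50.4 in controls. PFKFB3 in Kelly held 3.16, 4.10 and 4.63 CPM in the libraries labelled shAhR-1 and 6.38, 6.14 and 7.01 in shAhR-2, against 4.77, 5.62 and 4.04 in controls. It fell in BE2C with shAhR-1 (−0.51 ± 0.053, adjusted p = 4.48e-10) and rose with shAhR-2 in Kelly (0.43 ± 0.13, adjusted p = 0.00376), and the other 2 comparisons overlapped the controls. PFKFB4 held 4.17, 2.83 and 3.38 CPM in BE2C shAhR-1 and 5.34, 5.50 and 5.11 in shAhR-2, against 5.12, 5.86 and 5.83 in controls. In Kelly, PFKFB4 held 6.58, 7.33 and 5.84 CPM in the libraries labelled shAhR-1 and 10.6, 10.5 and 9.52 in shAhR-2, against 16.9, 18.9 and 15.9 in controls. PFKFB4 fell with shAhR-1 in BE2C (−0.69 ± 0.15) and with both hairpins in Kelly (−1.39 ± 0.095 and −0.77 ± 0.089), and BE2C shAhR-2 overlapped the control (−0.07 ± 0.14).

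Lower glycolysis recovers ATP from the 3-carbon sugars. All 7 of its genes fell with shAhR-1 in BE2C and in the Kelly libraries labelled shAhR-1, and 6 of 7 fell with shAhR-2 in each line, the exception being ENO2, which rose. Of all genes tested, 27.1% fell with shAhR-1 and 37.2% with shAhR-2 in BE2C. In Kelly 31.0% fell in the libraries labelled shAhR-1 and 38.2% with shAhR-2. The median fold changes of the 7 genes were −0.52 and −0.86 in BE2C and −0.44 and −0.49 in Kelly. Over all genes tested the medians were 0.0082 and 0.035 in BE2C and 0.0034 and −0.0060 in Kelly.

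PGAM1, the phosphoglycerate mutase, held 99.5, 102 and 104 CPM in BE2C shAhR-1 and 54.6, 50.2 and 52.9 in shAhR-2, against 151, 152 and 151 in controls. PGAM1 in Kelly held 83.9, 81.8 and 80.5 CPM in the libraries labelled shAhR-1 and 34.0, 34.6 and 34.1 in shAhR-2, against 105, 104 and 105 in controls. The controls were the highest libraries in both lines and the shAhR-2 libraries the lowest, with fold changes of −0.58 ± 0.037 and −1.51 ± 0.039 for BE2C, and for Kelly of −0.35 ± 0.037 and −1.62 ± 0.040. PKM encodes pyruvate kinase, the last ATP-yielding step, in its M1 and M2 splice forms, which counts per gene do not separate. It held 1066, 1076 and 1067 CPM in BE2C shAhR-1 and 430.4, 431 and 411 in shAhR-2, against 1419, 1369 and 1331 in controls. In Kelly, PKM held 972, 1016 and 995 CPM in the libraries labelled shAhR-1 and 379.5, 382 and 384 in shAhR-2, against 1119, 1100.0 and 1112 in controls. PKM fell in all 4 comparisons without overlap, by far more with shAhR-2 (−1.68 ± 0.028 in BE2C and −1.55 ± 0.026 in Kelly) than with shAhR-1 (−0.36 ± 0.027 and −0.15 ± 0.025). The direct contrast of shAhR-1 with shAhR-2 gave 1.32 ± 0.028, adjusted p = 1.16e-28 in BE2C and 1.39 ± 0.026, adjusted p = 7.36e-43 in Kelly. The PKM window printed above held neither ACGTG nor GCGTG.

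TPI1, PGK1, ENO1 and GAPDH fell in all 4 comparisons. TPI1, the triose isomerase, fell by 0.57 and 1.25 in BE2C and by 0.38 and 0.88 in Kelly (log2). PGK1, the first ATP-yielding enzyme, fell by 0.52 and 0.79 in BE2C and by 0.54 and 0.49 in Kelly. ENO1, the widespread enolase, fell by 0.54 and 0.86 in BE2C and by 0.44 and 0.49 in Kelly, and the SE of these values was at most 0.029. GAPDH, often used as a reference gene, averaged 1583 ± 26 CPM in BE2C shAhR-1 and 1462 ± 15 in shAhR-2, against 2212 ± 37 in controls. In Kelly GAPDH averaged 1570.0 ± 23 CPM in the libraries labelled shAhR-1 and 2272 ± 33 in shAhR-2, against 2360.0 ± 65 in controls. GAPDH fell by 0.48 and 0.59 in BE2C and by 0.58 in the Kelly libraries labelled shAhR-1. Its small fall with shAhR-2 in Kelly (−0.06 ± 0.025, adjusted p = 0.0231) did not pass under RLE size factors, a mean CPM of at least 1, halved counts or DESeq2, or without control replicate 1 or shAhR-2 replicate 3.

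ENO2, the neuron-specific enolase used as a neuroblastoma serum marker, moved with the hairpin. It held 109.7, 110.0 and 112 CPM in BE2C shAhR-1 and 164, 159 and 149 in shAhR-2, against 124, 120.5 and 126 in controls. ENO2 in Kelly held 228, 234 and 227 CPM in the libraries labelled shAhR-1 and 625, 617 and 615 in shAhR-2, against 327, 338 and 328 in controls. In each line the shAhR-1 libraries were lowest, the controls lay between and the shAhR-2 libraries were highest, without overlap. ENO2 fell with shAhR-1 (−0.16 ± 0.037 in BE2C and −0.52 ± 0.028 in the Kelly libraries so labelled) and rose with shAhR-2 (0.36 ± 0.037 and 0.90 ± 0.027).

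LDHA and LDHB encode the 2 main subunits of lactate dehydrogenase, LDHA being the form known to favour lactate formation. LDHA held 16.1, 18.2 and 17.3 CPM in BE2C shAhR-1 and 5.50, 6.30 and 4.80 in shAhR-2, against 17.8, 21.0 and 18.3 in controls. In Kelly, LDHA held 172, 169 and 170.5 CPM in the libraries labelled shAhR-1 and 103, 107 and 106 in shAhR-2, against 294, 303 and 298 in controls. LDHA fell with shAhR-2 in BE2C (−1.77 ± 0.10) and with both in Kelly (−0.80 ± 0.029 and −1.51 ± 0.030), and BE2C shAhR-1 overlapped its controls (−0.15 ± 0.090, adjusted p = 0.176). LDHB averaged 37.0 ± 1.2 CPM in BE2C shAhR-2 and 48.1 ± 2.3 in BE2C controls, and 58.2 ± 2.1 in Kelly shAhR-2 and 39.5 ± 1.2 in Kelly controls. It fell with shAhR-2 in BE2C (−0.37 ± 0.057) and rose in Kelly (0.55 ± 0.047). LDHB is uncertain as well, since 33.4% of its exonic bases are shared with AC010197.2 on the same strand, and its fall in BE2C with shAhR-1 (−0.15 ± 0.057, adjusted p = 0.0296) was lost without control replicate 2 or without shAhR-1 replicate 1 or 3.

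Lactate leaves cells through SLC16A1 (MCT1) and SLC16A3 (MCT4), MCT4 being the known hypoxia-induced exporter. SLC16A3 held 1.94, 1.70 and 1.55 CPM in BE2C shAhR-1 and 4.52, 4.99 and 4.63 in shAhR-2, against 1.30, 1.32 and 0.938 in controls. SLC16A3 in Kelly held 3.62, 3.78 and 3.90 CPM in the libraries labelled shAhR-1 and 22.9, 21.5 and 22.7 in shAhR-2, against 10.6, 12.3 and 10.9 in controls. All shAhR-2 libraries were above their controls (2.00 ± 0.20 in BE2C and 0.98 ± 0.081 in Kelly), while the Kelly libraries labelled shAhR-1 were below theirs (−1.57 ± 0.10). The rise in BE2C with shAhR-1 (0.54 ± 0.21, adjusted p = 0.0341) was lost when only the 2 groups were fitted, without control replicate 3, and without shAhR-1 replicate 1 or 2. SLC16A1 moved the other way from SLC16A3 in 3 comparisons, and slightly. It rose with shAhR-1 (0.15 ± 0.045 in BE2C and 0.14 ± 0.043 in the Kelly libraries so labelled) and fell with shAhR-2 (−0.37 ± 0.046 and −0.23 ± 0.043), and its rise in BE2C was lost without shAhR-1 replicate 1.

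Pyruvate dehydrogenase kinases switch off entry of pyruvate into the mitochondrial citric acid cycle, and PDK1 is a known hypoxia target. PDK1 held 19.1, 19.4 and 21.0 CPM in BE2C shAhR-1 and 10.1, 10.8 and 11.1 in shAhR-2, against 25.5, 30.5 and 26.4 in controls. In Kelly, PDK1 held 43.1, 44.0 and 46.8 CPM in the libraries labelled shAhR-1 and 37.9, 40.4 and 39.6 in shAhR-2, against 63.3, 69.2 and 60.7 in controls. PDK1 fell in all 4 comparisons without overlap (−0.47 ± 0.076 and −1.35 ± 0.080 in BE2C, −0.52 ± 0.049 and −0.72 ± 0.049 in Kelly). PDK3 held 30.9, 30.7 and 32.1 CPM in BE2C shAhR-1 and 26.3, 28.2 and 29.8 in shAhR-2, against 39.0, 42.9 and 41.1 in controls. PDK3 in Kelly held 31.3, 32.6 and 31.2 CPM in the libraries labelled shAhR-1 and 30.2, 31.3 and 27.3 in shAhR-2, against 32.9, 34.6 and 33.7 in controls. PDK3 was below its controls in every hairpin library and fell in BE2C (−0.40 ± 0.059 and −0.53 ± 0.059) and in Kelly with shAhR-2 (−0.20 ± 0.056).

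**Figure D3:**
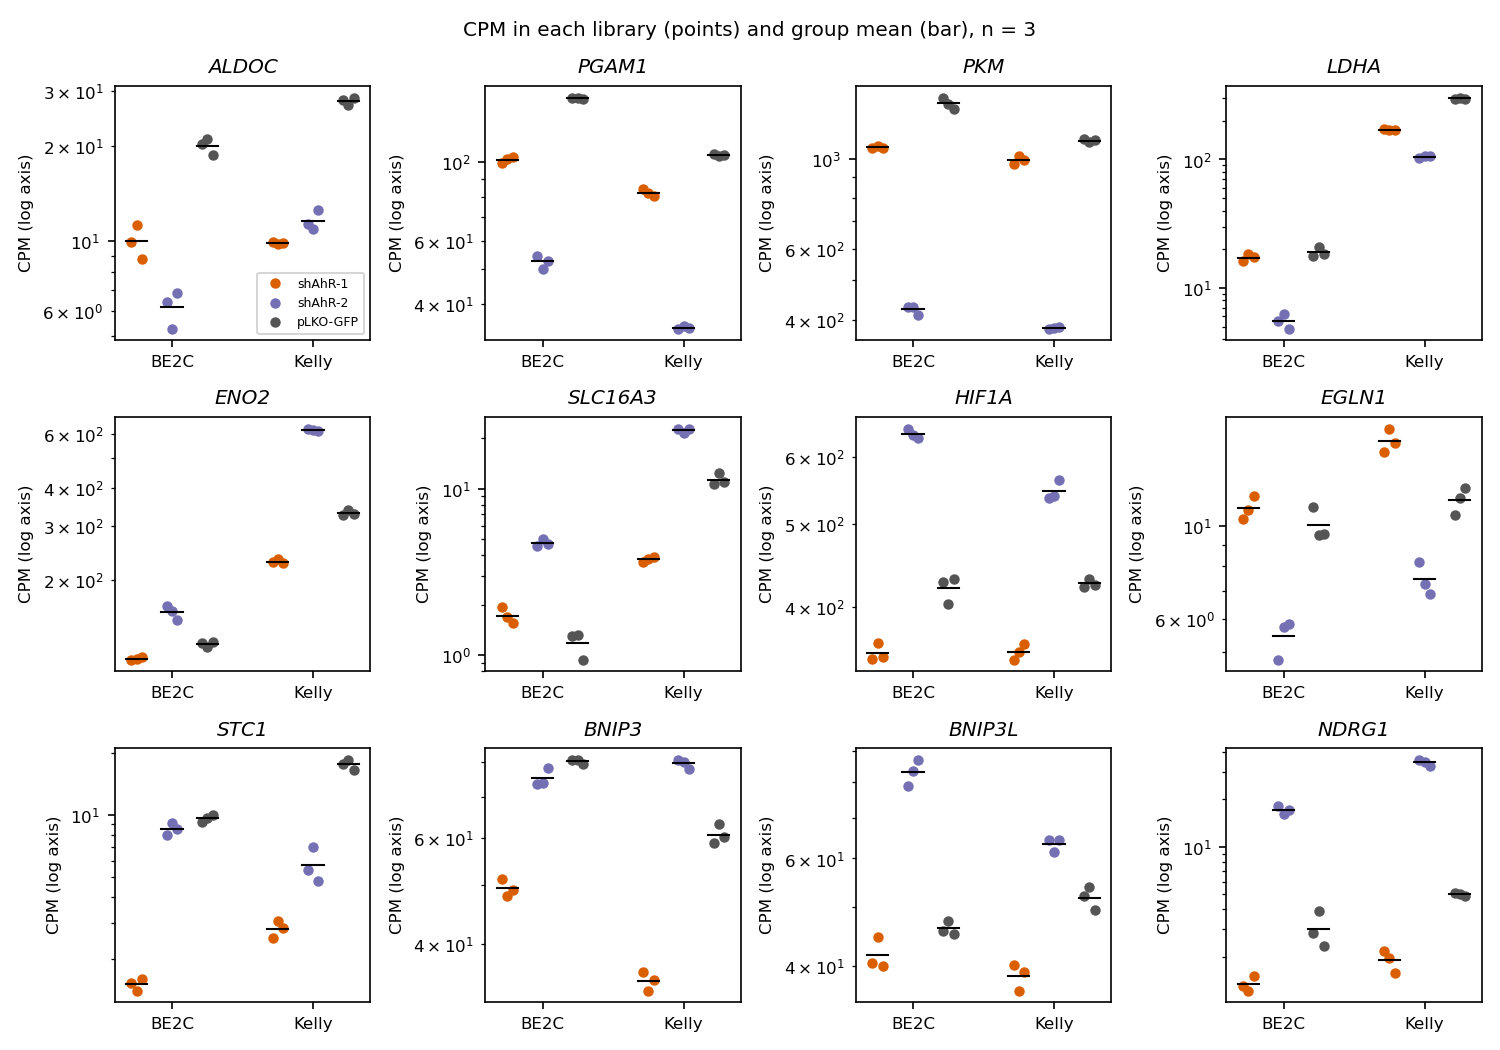
CPM on a log axis (y axis) of 12 members in each of the 18 libraries as points, with the group mean as a bar, for shAhR-1, shAhR-2 and pLKO-GFP of BE2C and Kelly (x axis). ALDOC, PGAM1 and PKM lie below controls with both hairpins in both lines, while ENO2, HIF1A, BNIP3L and NDRG1 lie below controls with shAhR-1 and above them with shAhR-2.

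The balance within pairs of related genes was computed per exonic length in each library. The 60 comparisons of a share between 3 hairpin and 3 control libraries used a 2-sided exact permutation test, which cannot give less than 0.1, and 49 of them reached that value (0.122 after adjustment over the 60), so none could pass the threshold. In Kelly the LDHA share of LDHA and LDHB was 68.9, 67.8 and 69.0% in the libraries labelled shAhR-1 and 47.0, 46.4 and 46.0% in shAhR-2, against 77.8, 79.2 and 78.1% in controls. In BE2C the same share was 15.5, 15.5 and 16.9% with shAhR-1 and 6.72, 7.75 and 5.69% with shAhR-2, against 15.4, 16.6 and 15.8% in controls. The ENO2 share of ENO1 and ENO2 was 14.7 ± 0.090% and 23.6 ± 0.53% with shAhR-1 and shAhR-2 in BE2C, against 11.7 ± 0.42% in controls (SD, n = 3 each). In Kelly the ENO2 share was 23.5 ± 0.50% and 45.9 ± 0.24%, against 24.5 ± 0.61% in controls. With shAhR-2 it lay above the controls in both lines, with no overlap between libraries. The HK2 share of HK1 and HK2 went apart between the lines with shAhR-2, at 17.0 ± 1.3% against 34.8 ± 0.57% in BE2C controls and 54.8 ± 0.48% against 39.5 ± 1.2% in Kelly controls. The EPAS1 share of EPAS1 and HIF1A was 14.4 ± 0.40% with shAhR-2 against 25.8 ± 1.3% in BE2C controls, and 41.4 ± 0.94% against 56.4 ± 0.45% in Kelly controls.

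**Figure D4:**
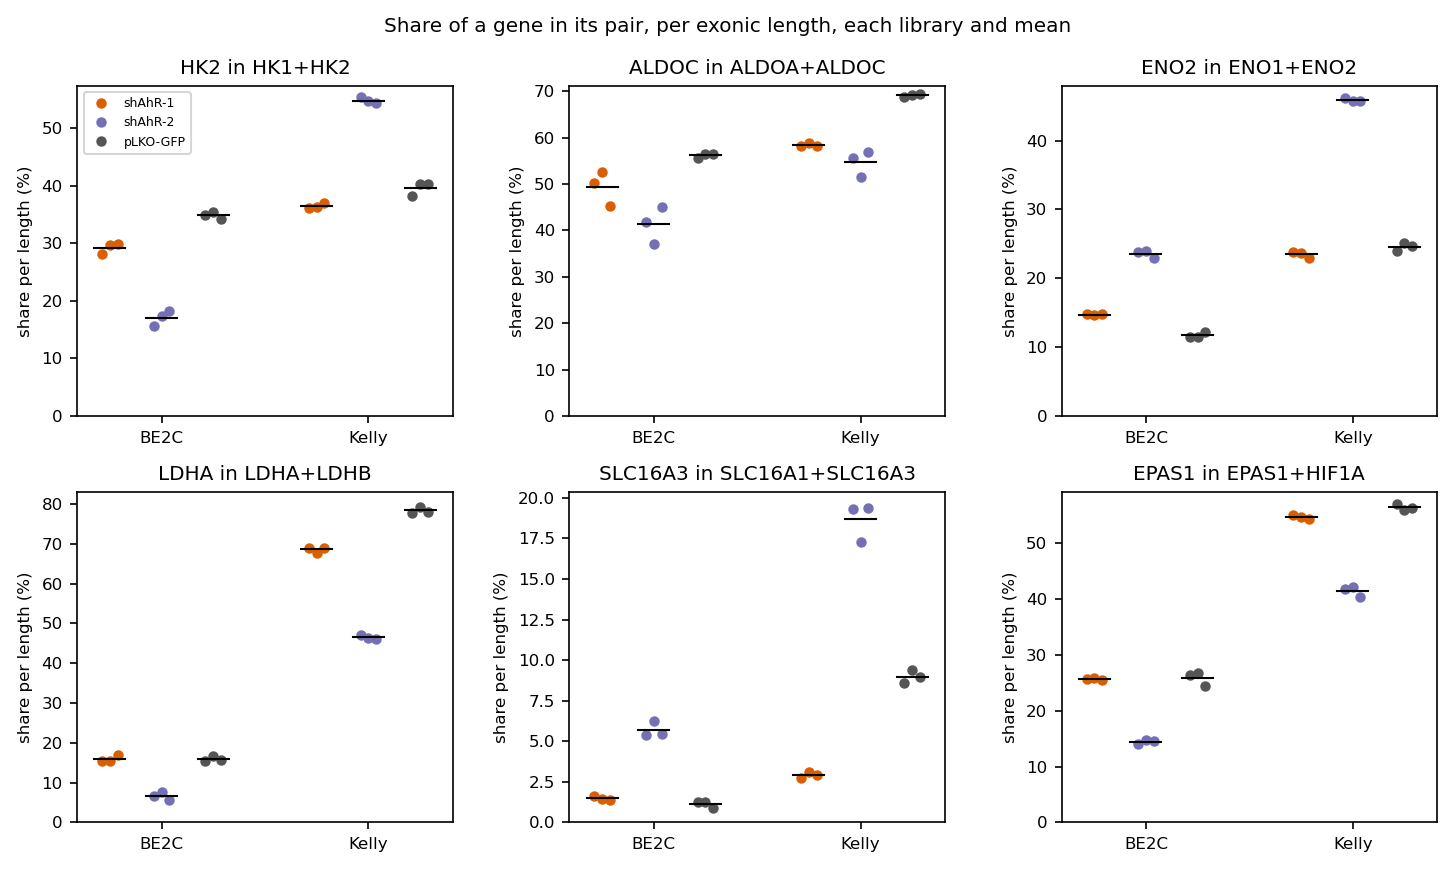
Share of a gene within its pair per exonic length (y axis, percent) in each library as a point, with the group mean as a bar, for shAhR-1, shAhR-2 and pLKO-GFP of each line (x axis). With shAhR-2 the ENO2 share stands at 23.6% in BE2C and 45.9% in Kelly, above controls at 11.7% and 24.5%, and the LDHA share stands at 6.72% and 46.5%, below controls at 15.9% and 78.4%.

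The alpha subunits HIF1A and EPAS1 both fell with shAhR-1 in each line, while with shAhR-2 HIF1A rose and EPAS1 fell. HIF1A held 347, 362 and 349.6 CPM in BE2C shAhR-1 and 647, 636 and 630.4 in shAhR-2, against 427, 403 and 432 in controls. In Kelly, HIF1A held 346, 354 and 362 CPM in the libraries labelled shAhR-1 and 536, 540.2 and 564 in shAhR-2, against 422, 432 and 424 in controls. HIF1A RNA was lowest with shAhR-1 and highest with shAhR-2 in both lines, without overlap, and fell with shAhR-1 (−0.25 ± 0.029 in BE2C and −0.26 ± 0.028 in the Kelly libraries so labelled) and rose with shAhR-2 (0.61 ± 0.029 and 0.35 ± 0.027). EPAS1 held 169, 179 and 169 CPM in BE2C shAhR-1 and 149, 156 and 152 in shAhR-2, against 217, 209 and 198 in controls. EPAS1 in Kelly held 603, 604 and 609.9 CPM in the libraries labelled shAhR-1 and 544, 556 and 539 in shAhR-2, against 789.7, 779.9 and 771 in controls. EPAS1 fell in all 4 comparisons without overlap (−0.27 ± 0.035 and −0.44 ± 0.035 in BE2C, −0.36 ± 0.026 and −0.52 ± 0.026 in Kelly). The proteins of both factors are set mainly by degradation, which RNA counts do not show.

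EGLN1 (PHD2), the main oxygen sensor, and EGLN3 (PHD3), itself a known hypoxia target, hydroxylate these subunits. EGLN1 held 10.4, 10.9 and 11.8 CPM in BE2C shAhR-1 and 4.78, 5.72 and 5.83 in shAhR-2, against 11.1, 9.54 and 9.59 in controls. In Kelly, EGLN1 held 15.1, 17.1 and 15.8 CPM in the libraries labelled shAhR-1 and 8.22, 7.28 and 6.88 in shAhR-2, against 10.6, 11.7 and 12.3 in controls. EGLN1 fell with shAhR-2 in both lines (−0.88 ± 0.11 in BE2C and −0.64 ± 0.093 in Kelly) and rose in Kelly libraries labelled shAhR-1 (0.48 ± 0.088), and BE2C shAhR-1 overlapped its controls. EGLN3 held 19.8, 20.3 and 20.1 CPM in BE2C shAhR-1 and 20.7, 19.1 and 18.9 in shAhR-2, against 27.8, 26.3 and 28.9 in controls. EGLN3 in Kelly held 3.45, 3.76 and 3.73 CPM in the libraries labelled shAhR-1 and 6.65, 6.18 and 7.92 in shAhR-2, against 5.35, 5.79 and 5.38 in controls. EGLN3 fell in BE2C with both (−0.46 ± 0.068 and −0.49 ± 0.067) and in Kelly libraries labelled shAhR-1 (−0.59 ± 0.13). Its rise with shAhR-2 in Kelly (0.32 ± 0.12, adjusted p = 0.0148) was lost without shAhR-2 replicate 3.

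Among the secreted factors, STC1, a glycoprotein hormone induced by hypoxia, had the largest falls. STC1 held 1.54, 1.40 and 1.60 CPM in BE2C shAhR-1 and 7.95, 9.14 and 8.49 in shAhR-2, against 9.25, 9.67 and 9.94 in controls. In Kelly, STC1 held 2.53, 3.05 and 2.81 CPM in the libraries labelled shAhR-1 and 5.38, 6.97 and 4.80 in shAhR-2, against 17.7, 18.5 and 16.6 in controls. All hairpin libraries lay below their controls. STC1 fell with shAhR-1 in BE2C (−2.66 ± 0.14) and in the Kelly libraries so labelled (−2.65 ± 0.12), and the difference between these effects was −0.01 ± 0.18, adjusted p = 1. With shAhR-2 it fell in Kelly (−1.63 ± 0.11), and the BE2C value was −0.16 ± 0.11, adjusted p = 0.179. VEGFA, the main angiogenic factor, had smaller changes. It averaged 172 ± 3.1 CPM in BE2C shAhR-1 and 213 ± 3.0 in shAhR-2, against 161 ± 3.0 in controls, and 97.4 ± 1.6 and 125 ± 4.1 in Kelly, against 103 ± 2.7. It rose with shAhR-2 (0.41 ± 0.032 in BE2C and 0.26 ± 0.034 in Kelly). The shAhR-1 calls, a rise of 0.10 in BE2C and a fall of 0.08 in Kelly, were lost without control replicate 3 or shAhR-1 replicate 1 in either line, and also without shAhR-1 replicate 2 in BE2C and without control replicate 1 or shAhR-1 replicate 3 in Kelly. The Kelly call was also lost with a filter at a mean CPM of 1 and when only the 2 groups were fitted.

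ADM, a vasodilator peptide, was weakly expressed. It held 1.59, 0.755 and 1.85 CPM in BE2C shAhR-1 and 1.26, 0.821 and 0.901 in shAhR-2, against 1.25, 1.32 and 1.52 in controls. ADM in Kelly held 0.575, 0.736 and 0.655 CPM in the libraries labelled shAhR-1 and 0.342, 0.325 and 0.303 in shAhR-2, against 0.398, 0.191 and 0.104 in controls. Only the Kelly libraries labelled shAhR-1 all lay above controls (1.47 ± 0.48, adjusted p = 0.00662), and that call was lost without control replicate 3.

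BNIP3 and BNIP3L (NIX) are outer mitochondrial membrane receptors for mitophagy, the removal of mitochondria, and both are hypoxia targets. BNIP3 held 51.3, 48.0 and 49.2 CPM in BE2C shAhR-1 and 73.8, 73.9 and 78.4 in shAhR-2, against 80.9, 80.7 and 79.4 in controls. In Kelly, BNIP3 held 35.9, 33.4 and 34.8 CPM in the libraries labelled shAhR-1 and 80.9, 80.2 and 78.1 in shAhR-2, against 58.8, 63.2 and 60.0 in controls. BNIP3 fell with shAhR-1 (−0.70 ± 0.044 in BE2C and −0.80 ± 0.045 in the Kelly libraries so labelled) and rose in Kelly with shAhR-2 (0.39 ± 0.042). With shAhR-2 in BE2C the value was −0.08 ± 0.042, adjusted p = 0.0871, and it passed the threshold without any 1 of the shAhR-1 libraries or without shAhR-2 replicate 3. BNIP3L held 40.5, 44.6 and 40.0 CPM in BE2C shAhR-1 and 78.9, 83.7 and 87.2 in shAhR-2, against 45.7, 47.4 and 45.0 in controls. BNIP3L in Kelly held 40.1, 36.4 and 39.1 CPM in the libraries labelled shAhR-1 and 64.3, 61.5 and 64.4 in shAhR-2, against 52.1, 53.8 and 49.3 in controls. BNIP3L rose with shAhR-2 in both lines (0.87 ± 0.049 in BE2C and 0.29 ± 0.046 in Kelly) and fell in Kelly libraries labelled shAhR-1 (−0.42 ± 0.048). Its fall in BE2C with shAhR-1 (−0.15 ± 0.052, adjusted p = 0.0165) was lost without control replicate 2 or without shAhR-1 replicate 1 or 3. Mitochondrially encoded genes took 24.3% to 24.9% of counts in BE2C shAhR-1 and 20.5% to 25.1% in shAhR-2, against 18.8% to 19.4% in controls, and 17.4% to 17.7% and 15.2% to 15.8% in the same Kelly groups, against 14.5% to 15.6%. Named copies of BNIP3 held 4.56% of the counts of the gene itself. The part of these mitochondrial shares in the values of BNIP3 and BNIP3L was not tested.

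P4HA1 and P4HA2 are catalytic subunits of collagen prolyl hydroxylase. P4HA1 held 48.6, 49.5 and 50.5 CPM in BE2C shAhR-1 and 44.6, 44.8 and 43.8 in shAhR-2, against 55.8, 60.5 and 54.9 in controls. In Kelly, P4HA1 held 11.9, 10.2 and 11.8 CPM in the libraries labelled shAhR-1 and 15.2, 15.9 and 15.6 in shAhR-2, against 15.7, 15.1 and 14.9 in controls. P4HA1 fell in BE2C (−0.21 ± 0.049 and −0.35 ± 0.048) and in Kelly libraries labelled shAhR-1 (−0.43 ± 0.081), while Kelly shAhR-2 overlapped its controls. P4HA2 held 10.9, 12.2 and 12.1 CPM in BE2C shAhR-1 and 26.8, 25.3 and 24.4 in shAhR-2, against 15.8, 13.6 and 13.0 in controls. P4HA2 in Kelly held 14.4, 14.5 and 14.4 CPM in the libraries labelled shAhR-1 and 13.5, 12.3 and 12.1 in shAhR-2, against 11.9, 11.8 and 10.8 in controls. P4HA2 rose in BE2C with shAhR-2 (0.87 ± 0.080) and in Kelly libraries labelled shAhR-1 (0.33 ± 0.082). Its fall in BE2C with shAhR-1 (−0.27 ± 0.085, adjusted p = 0.00828) was lost without control replicate 1.

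NDRG1, a growth-arrest gene that is also a known target of MYCN repression, showed the widest gap between the hairpins. NDRG1 held 1.31, 1.21 and 1.50 CPM in BE2C shAhR-1 and 18.2, 16.1 and 17.2 in shAhR-2, against 2.85, 3.88 and 2.33 in controls. In Kelly, NDRG1 held 2.18, 1.97 and 1.58 CPM in the libraries labelled shAhR-1 and 35.9, 34.8 and 32.7 in shAhR-2, against 5.06, 4.98 and 4.89 in controls. No groups overlapped, with falls of 1.17 and 1.39 (log2, SE 0.18 and 0.12) with shAhR-1 in BE2C and in the Kelly libraries so labelled, and rises of 2.51 ± 0.13 and 2.78 ± 0.086 with shAhR-2. ANKRD37, an ankyrin-repeat protein gene known as a hypoxia target, held 0.560, 0.378 and 0.701 CPM in BE2C shAhR-1 and 0.932, 1.33 and 1.20 in shAhR-2, against 0.575, 0.854 and 0.735 in controls. ANKRD37 in Kelly held 1.15, 1.18 and 1.36 CPM in the libraries labelled shAhR-1 and 3.33, 4.09 and 3.42 in shAhR-2, against 1.66, 1.96 and 1.79 in controls. ANKRD37 rose in Kelly with shAhR-2 (1.00 ± 0.19), and its fall in Kelly libraries labelled shAhR-1 (−0.54 ± 0.21, adjusted p = 0.0268) was lost when only the 2 groups were fitted, and without control replicate 2 or shAhR-1 replicate 1 or 2. Of its exonic bases 35.2% are shared with UFSP2 on the opposite strand, which cannot be told apart if counting ignored the strand.

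KDM3A, a histone H3K9 demethylase, lay on opposite sides of the BE2C control with the 2 hairpins. It averaged 39.9 ± 1.4 CPM in BE2C shAhR-1 and 60.1 ± 1.3 in shAhR-2, against 48.1 ± 2.4 in controls (−0.27 ± 0.051 and 0.33 ± 0.049). In Kelly it averaged 20.6 ± 1.7 CPM in the libraries labelled shAhR-1 and 34.7 ± 0.84 in shAhR-2, against 32.0 ± 1.6 in controls (−0.63 ± 0.062, and 0.11 ± 0.058, adjusted p = 0.0922). DDIT4 (REDD1), an inhibitor of mTORC1, was lower in a different group of each line. It averaged 23.5 ± 1.0 CPM in BE2C shAhR-1 and 7.41 ± 0.41 in shAhR-2, against 21.4 ± 3.1 in controls, and fell with shAhR-2 (−1.52 ± 0.093). In Kelly it averaged 22.4 ± 2.6 CPM in the libraries labelled shAhR-1 and 35.9 ± 1.1 in shAhR-2, against 38.2 ± 1.4 in controls, and fell in the libraries labelled shAhR-1 (−0.76 ± 0.062). DDIT4 shares 41.2% of its exonic bases with DDIT4-AS1 on the opposite strand, so the same limit holds.

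The hairpins were then set against each other directly, without the controls. In BE2C, 16 of 40 members were lower and 21 higher with shAhR-1 than with shAhR-2, where 36.5% and 35.9% of all genes were. In Kelly, 22 of 39 were lower and 11 higher in the libraries labelled shAhR-1, against 38.2% and 39.3% of all genes. Of the 15 hypoxia response genes tested, 9 were lower and 4 higher in BE2C, and 11 were lower and 4 higher in Kelly. NDRG1 (−3.69 ± 0.15 in BE2C and −4.17 ± 0.10 in Kelly), STC1 (−2.50 ± 0.14 and −1.01 ± 0.13), BNIP3L (−1.01 ± 0.050 and −0.71 ± 0.047) and HIF1A (−0.87 ± 0.029 and −0.61 ± 0.028) were lower with shAhR-1 in both. EGLN1 was higher with shAhR-1 in both (1.00 ± 0.11 and 1.12 ± 0.092), as were PGAM1 (0.94 ± 0.039 and 1.27 ± 0.040) and LDHA (1.62 ± 0.10 and 0.71 ± 0.031).

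The lines have separate controls, so the calls of each hairpin were set side by side between them. With shAhR-1, 28 members fell in BE2C and 31 in the Kelly libraries so labelled, and 24 fell in both, which is 85.7% of the BE2C list and 77.4% of the Kelly list. Over all 14680 genes tested in both lines, those that fell in both with shAhR-1 were 67.1% of the BE2C list and 59.5% of the Kelly list. Of the 3 members that rose in BE2C and the 4 that rose in Kelly libraries labelled shAhR-1, SLC16A1 alone was shared (33.3% and 25.0%, against 62.1% and 52.8% over all genes). With shAhR-2, 18 fell in both (75.0% of 24 in BE2C and 85.7% of 21 in Kelly), against 71.7% and 71.0% over all genes. The 6 that rose with shAhR-2 in both were ENO2, SLC16A3, HIF1A, VEGFA, BNIP3L and NDRG1, which is 66.7% of the 9 in BE2C that were tested in both lines and 46.2% of the 13 in Kelly, against 66.8% and 66.3% over all genes. The shared falls made up more of each list than over all genes, though with shAhR-2 the BE2C share was near it (75.0% against 71.7%). The shared rises did not make up more. Members also fell more often than all genes did, and a list with more falls shares more of them. These shares are therefore not read as a result about the members. No test of these shares was made. The size of the effect differed between lines for 23 of 40 members with shAhR-1, where 35.7% of 17136 genes did, and for 33 of 40 with shAhR-2, where 54.7% did. These counts ranged from 18 to 23 and from 30 to 33 when 1 library was left out.

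The lines also differed in the members without a hairpin. In the controls, 17 of 40 members were lower and 20 higher in BE2C than in Kelly, where 39.0% and 37.2% of all genes were. LDHA had 3.06 ± 0.28 CPM per kilobase in BE2C controls and 48.0 ± 0.73 in Kelly controls, a log2 difference of −3.97 ± 0.049. SLC16A3, the lactate exporter, had 0.132 ± 0.024 and 1.25 ± 0.10 (−3.24 ± 0.14), EPAS1 had 28.4 ± 1.3 and 107 ± 1.3 (−1.91 ± 0.031), and ENO2 had 28.9 ± 0.64 and 77.3 ± 1.4 (−1.42 ± 0.032). Higher in BE2C were PFKFB3, with 8.58 ± 0.50 CPM per kilobase in BE2C and 0.787 ± 0.13 in Kelly (3.44 ± 0.086), EGLN3 (2.33 ± 0.089) and P4HA1 (1.90 ± 0.059). SLC2A3 had 112 counts over the BE2C controls and 0 over the Kelly controls, at least 39.0-fold higher in BE2C by the floor of 3 counts over the group. That bound takes each count as a separate fragment, and it would be smaller if fragments were counted as 2 reads. GAPDH was the most abundant member per length in both, with 742 CPM per kilobase in BE2C and 792 in Kelly, followed by TPI1 (266 and 256) and ENO1 (217 and 238). These lengths are unions of all annotated exons, at 8571 bases for PKM, 5276 for ENO1 and 2700 for TPI1. The order may not hold for lengths of single transcripts. HIF1A did not pass the threshold between lines (−0.02 ± 0.029, adjusted p = 0.571, but 0.07 and called higher in BE2C with no filter, adjusted p = 0.0331, or with halved counts, adjusted p = 0.0208, in edgeR), with 81.7 ± 3.0 and 82.7 ± 0.96 CPM per kilobase.

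**Figure D5:**
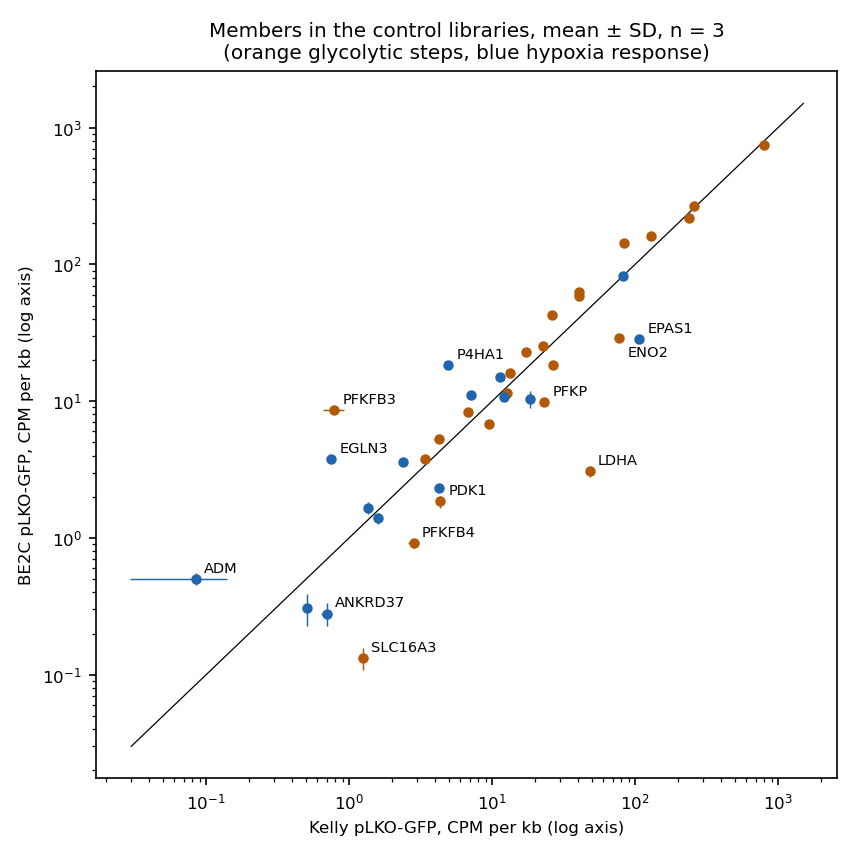
Mean CPM per kilobase of exon in the BE2C controls (y axis) and the Kelly controls (x axis) for the members without SLC2A3 and CA9, on log axes, with SD over 3 libraries as bars and the line of equal level. LDHA, SLC16A3, EPAS1 and ENO2 lie below the line, and PFKFB3, EGLN3 and P4HA1 lie above it.

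Other genes of these pathways, which are no members, were counted in the same way. Of other glycolysis and pyruvate genes, 11 fell and 4 rose of 28 tested in BE2C with shAhR-1, and 14 fell and 7 rose with shAhR-2. In Kelly 15 fell and 7 rose of 29 in the libraries labelled shAhR-1, and 12 fell and 11 rose with shAhR-2. Of all genes tested, 27.1% fell and 25.2% rose in BE2C with shAhR-1, and 37.2% and 38.0% with shAhR-2. In Kelly these shares were 31.0% and 29.6% in the libraries labelled shAhR-1, and 38.2% and 37.2% with shAhR-2. The counts of this and the other non-member lists were not tested against those shares, and nothing particular to the lists is read from them. ENO3, the muscle enolase, rose in all 4 comparisons (0.46 ± 0.095 and 3.16 ± 0.082 in BE2C, 0.23 ± 0.069 and 2.20 ± 0.061 in Kelly). PFKFB2 fell in all 4 (−1.02 ± 0.18, −1.08 ± 0.18, −0.90 ± 0.091 and −1.77 ± 0.097), and so did PDK2 (−0.28 ± 0.11, −1.48 ± 0.12, −0.59 ± 0.089 and −1.10 ± 0.092), a further pyruvate dehydrogenase kinase.

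The 7 pentose phosphate genes, which branch from glucose 6-phosphate to make NADPH and ribose, were counted as 4 that fell and 3 that rose, then 6 and 1, in BE2C, and 4 and 1, then 5 and 1, in Kelly (shAhR-1, then shAhR-2). RPIA (−1.59 ± 0.092, −1.17 ± 0.088, −1.51 ± 0.10 and −0.73 ± 0.096) and RPE (−0.95 ± 0.046, −0.50 ± 0.044, −0.77 ± 0.059 and −0.58 ± 0.058), which interconvert pentose phosphates, fell in all 4. TALDO1, the transaldolase, fell more with shAhR-2 (−1.50 ± 0.055 in BE2C and −1.81 ± 0.063 in Kelly) than with shAhR-1 (−0.19 ± 0.051 and −0.68 ± 0.059), and shAhR-1 less shAhR-2 was 1.31 ± 0.055 and 1.13 ± 0.066 (edgeR, adjusted p = 1.79e-20 and 1.71e-21).

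Among 13 other regulators of the hypoxia-inducible factors in BE2C, 5 fell and 1 rose with shAhR-1, and 6 fell and 3 rose with shAhR-2. Of 12 in Kelly, 3 fell and 6 rose in the libraries labelled shAhR-1, and 6 fell and 2 rose with shAhR-2. ARNT held 51.5, 52.9 and 53.8 CPM in BE2C shAhR-1 and 53.8, 55.0 and 56.0 in shAhR-2, against 72.7, 67.8 and 66.3 in controls. In Kelly, ARNT held 67.9, 73.4 and 70.2 CPM in the libraries labelled shAhR-1 and 89.7, 87.9 and 85.7 in shAhR-2, against 104, 98.0 and 106 in controls. RBX1, a subunit of the VHL ligase, fell by 0.16 and 0.29 in BE2C and by 0.19 and 0.45 in Kelly (log2). Of other hypoxia targets, 12 fell and 7 rose of 32 in BE2C with shAhR-1, and 10 fell and 13 rose with shAhR-2. Of 31 in Kelly, 18 fell and 5 rose in the libraries labelled shAhR-1, and 12 fell and 15 rose with shAhR-2. P4HB, the beta subunit partner of P4HA1 and P4HA2, fell in all 4 (−1.21 ± 0.031, −1.03 ± 0.031, −1.37 ± 0.033 and −1.07 ± 0.032). The transferrin receptor TFRC fell in BE2C (−0.94 ± 0.045 and −1.26 ± 0.045) and in Kelly libraries labelled shAhR-1 (−0.81 ± 0.027) and rose in Kelly with shAhR-2 (0.83 ± 0.027). PLIN2, a lipid droplet coat gene, rose in BE2C (1.37 ± 0.48 and 3.22 ± 0.43) and fell in Kelly (−0.22 ± 0.056 and −0.37 ± 0.056).

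Markers of other cell types moved beside these results. The 11 adrenergic markers summed to 5170 to 5240 CPM with shAhR-1 and 3000 to 3020 with shAhR-2 in BE2C, against 5800 to 5980 in controls. In Kelly they summed to 5450 to 5580 CPM in the libraries labelled shAhR-1 and 6250 to 6340 in shAhR-2, against 10100 to 10800 in controls. The 6 Schwann cell or glial markers summed to 2.29 to 3.45 CPM with shAhR-1 and 13.4 to 14.1 with shAhR-2 in BE2C, against 2.54 to 3.45 in controls. In Kelly the glial sum was 2.63 to 3.06 CPM in the libraries labelled shAhR-1 and at least 9.56 (mean 9.80) in shAhR-2, against 2.97 to 3.75 in controls. These lists were low next to the adrenergic one. The 3 endothelial markers summed to 0.351 to 1.03 CPM with shAhR-1 and 7.60 to 8.74 with shAhR-2 in BE2C, against 1.03 to 1.65 in controls, and to 0.921 to 1.38 and 5.04 to 5.58 in Kelly, against 2.05 to 2.73. The 8 fibroblast or mesenchymal markers summed to 180 to 189 CPM with shAhR-1 and 296 to 308 with shAhR-2 in BE2C, against 170 to 173 in controls, and to 79.2 to 91.1 and 111 to 112 in Kelly, against 114 to 121. Defining markers at 0 in all 3 libraries of a group included COL1A2 in shAhR-2 of both lines and POSTN in Kelly shAhR-2 and controls. S100B was at 0 in the Kelly libraries labelled shAhR-1. COL1A2 averaged at most 0.0353 CPM in any group. With shAhR-2 in BE2C, COL1A1 averaged 27.3 CPM against 1.48 in controls and COL3A1 40.2 against 4.06. There PDGFRB averaged 68.2 against 35.9 and THY1 124 against 74.3, while LUM was lower, at 37.0 against 50.9. In Kelly shAhR-2, COL1A1 (6.96 against 10.1) and PDGFRB (72.9 against 83.1) were below controls, and THY1 (30.1 against 23.5) was above. Glial and endothelial sums were thus highest with shAhR-2 in both lines, and the mesenchymal sum was highest with it in BE2C only. NDRG1, BNIP3L, SLC16A3 and ENO2 rose with the same hairpin, and the part of these sums in these results was not tested. VWF made up most of the endothelial sum with shAhR-2, at 7.17 CPM in BE2C and 5.17 in Kelly. PECAM1 and CDH5 had group means of at most 0.419 and 0.743 CPM. Of the glial markers, SOX10 had a group mean of at most 0.299 CPM, and S100B averaged 0.181 in Kelly shAhR-2. The sums are not read as the presence of a cell type.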

How the data were processed

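Total RNA depleted of ribosomal RNA was sequenced, with the miRNeasy and RNA HyperPrep RiboErase kits per the labels' protocols. The authors deposited 1 table of raw read counts per gene for each line. CASAVA 1.8.2, STAR 2.7.9a and build GRCh38.p7 are named per the submitters' processing notes. Which tool counted the reads, with what strand setting and annotation, is not stated. Between 68.3% and 72.5% of the counts from 1 to 20 in each library were even numbers, so a fragment may often have been counted as 2 reads. The alternative of halved counts addresses this.

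The members and lists were chosen with earlier results of these data known. Each line was fitted in edgeR 4.0.16 (limma 3.58.1, R 4.3.3) over its 9 libraries, with TMM scaling, filterByExpr and the quasi-likelihood test, and Benjamini-Hochberg adjustment over all genes tested. Contrasts between lines came from 1 fit of all 18 libraries. CPM used TMM scaling over the 18. Lengths are unions of GENCODE exons. Every deposited column matched a sample. Values in every library are given for HIF1A and EPAS1, for up to 2 members per role with the largest mean absolute change, and for up to 6 members with the largest difference between lines or hairpins among those called in opposite directions. Of the other pathway lists, AHR, ARNT and up to 3 genes per list were named, with the largest mean absolute change among those called in all 4 comparisons. The values of SLC2A3 in every library were given outside this rule, after their values were seen. Replicate numbers come from the titles. The scripts were tested on simulated data with known changes. Alternatives were RLE factors, other filters, only the groups compared, a replicate block, halved counts, no mitochondrial genes, DESeq2 1.42.0 and leaving out each library.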

Additional observations from a re-analysis of the deposited data

Results flagged for a closer look

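For 8 members the effect of the same hairpin was called in opposite directions in the lines, and the difference, the BE2C effect less the Kelly effect in edgeR, itself passed the test. These were 3 of the 39 members tested in both lines with shAhR-1 (7.69%, against 5.55% of all genes) and 5 of 39 with shAhR-2 (12.8%, against 10.4%). With shAhR-1 the difference was 2.12 for SLC16A3 (adjusted p = 1.21e-11), 0.185 for VEGFA (adjusted p = 0.00135) and −0.591 for P4HA2 (adjusted p = 7.47e-05). With shAhR-2 it was −1.73 for HK2 (adjusted p = 6.39e-28), −0.466 for PFKM (adjusted p = 5.12e-13) and 0.258 for PFKP (adjusted p = 0.000256). It was −0.936 for LDHB (adjusted p = 3.22e-15) and −0.831 for EGLN3 (adjusted p = 1.72e-07), also with shAhR-2. HK2 and PFKM, both of upper glycolysis, were lower than controls in BE2C and higher in Kelly in every shAhR-2 library. At least 1 of the 2 opposite calls was lost when a single library was left out for SLC16A3, VEGFA, P4HA2, PFKP and EGLN3. AHR counts overlapped those of the controls in the shAhR-1 libraries of both lines, which touches the first 3 of these differences.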

How the results depend on the processing

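Among the counts over all members, 1 moved by more than 1.5 times. The 3 members that rose in BE2C with shAhR-1 ranged from 0 to 4 when 1 library was left out, being 0 without shAhR-1 replicate 1 and 1 without shAhR-1 replicate 2 or control replicate 3. By list, in BE2C with shAhR-1, the 2 glycolytic steps that rose ranged from 0 to 3 over all alternatives, and the 1 hypoxia response gene that rose from 0 to 2. No other count by list against the controls moved by more than 1.5 times. For single members, the difference of HIF1A between the controls turned to 0.0689 with no filter (adjusted p = 0.0331, edgeR) and to 0.0710 with halved counts (adjusted p = 0.0208), called in both. Over 357 member values, RLE factors left 347 on their side of the threshold, DESeq2 346, halved counts 338, no filter 341, fitting only the groups compared 352, leaving out mitochondrial genes 355, and a replicate block 353. A filter at a mean CPM of 1 left 325 of 348. Leaving out 1 library left 4129 of 4293. With the replicate block the interaction count for shAhR-1 was 20 against 23. Deviations from group means correlated at −0.0922 to 0.0728 between same-numbered libraries in BE2C and at −0.0475 to 0.0538 in Kelly, so the numbers were not taken as pairs. Taken as shares of counts, 20 of 60 isozyme comparisons moved. Weak genes (ADM, SLC16A3 in BE2C, ANKRD37) rest on few counts, so differences there may not be detectable at this depth.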
